A study of Mus musculus with 5 samples.

Results

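The genes described here encode the cytosolic enzymes that make fatty acids and enzymes of the endoplasmic reticulum that desaturate and elongate them: Acly, Acaca, Fasn, Scd1, Scd2, Fads1, Fads2, Fads3, Elovl5 and Elovl6. These 10 genes were taken by symbol from the 46959 gene symbols of the count tables, and all 10 were abundant enough to be tested. They were selected on their place in the pathway with their fold changes and calls between caMNK and pBABE already known, so those values are given as a description, without a test of their own. The cells are D4m.3a, a murine melanoma line from C57BL/6 mice (Dartmouth murine mutant malignant melanoma-3A), used at passages 7 to 12 in both groups. The reference group carried the retroviral vector pBABE and is labelled as the control genotype (n = 2 libraries). The other group, caMNK, is labelled as having constitutive activation of MNK, and the extraction protocol names the construct caMNK1 (n = 3 libraries). MNK1 is a protein kinase of the MAP kinase pathway whose best known substrate is eIF4E, which binds the cap of mRNAs. The series calls the libraries biological replicates and does not say whether they are separate cultures, so the p-values measure only their spread. With 1 line a group, the kinase and whatever else sets the lines apart cannot be told apart. In bulk RNA, fewer cells of a kind and less RNA per cell cannot be told apart either.

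Fatty acid synthesis starts from citrate that leaves the mitochondrion. ATP citrate lyase splits it to acetyl-CoA, acetyl-CoA carboxylase makes malonyl-CoA, and fatty acid synthase joins these units to palmitate. Stearoyl-CoA desaturases place the first double bond in saturated chains, fatty acid desaturases act mainly on polyunsaturated chains, and the ELOVL enzymes lengthen both. The transcription factors SREBP-1 and SREBP-2, encoded by Srebf1 and Srebf2, are the best known activators of these genes, together with the factor NF-Y, which binds CCAAT boxes, and SP1, which binds GC boxes. Tumour cells, melanoma included, often make fatty acids themselves besides taking them up.

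The genes lie in a few places of the genome. Fads3 (chromosome 19, 10041569 to 10060110, plus strand), Fads2 (10062765 to 10101746, minus strand) and Fads1 (10182888 to 10196877, plus strand) are neighbours, with 2654 bases between Fads3 and Fads2 and 81141 bases between Fads2 and Fads1. Scd2 (44293674 to 44306864, plus strand) and Scd1 (44394455 to 44407879, minus strand) lie further along chromosome 19, with Scd4 in the 87590 bases between them. Acaca (84129672 to 84401651, plus strand), Acly (100476353 to 100528000, minus strand) and Fasn (120805846 to 120824547, minus strand) are on chromosome 11, Elovl5 is on chromosome 9 (77917364 to 77984519, plus strand) and Elovl6 on chromosome 3 (129532355 to 129638495, plus strand). These positions are those of GENCODE M21 on GRCm38, the same build as the counts (mm10). The deposited lengths of Acly, Acaca, Fasn, Elovl5 and Elovl6 equal these spans. Those of the desaturase genes are somewhat shorter than the spans but far longer than the summed exons. They are 13259 of 13425 bases for Scd1, 13189 of 13191 for Scd2 and 13983 of 13990 for Fads1. For Fads2 the length is 37340 of 38982 bases and for Fads3 18124 of 18542.

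Promoter sequences are shown so that the starts of a gene that fell (Fads3) and of genes that did not pass (Fasn, Elovl5 and Acly) can be set side by side. RefSeq promoter windows on GRCm38.p6 were found for 7 of the 10 genes (Acly, Acaca, Fasn, Fads2, Fads3, Elovl5 and Elovl6). The 250 bases upstream of the start are printed 5′ to 3′ on the gene's strand for the 4 genes whose window lies outside the GENCODE gene or overlaps it by 1 base, with matches to a CCAAT box (CCAAT or its reverse complement ATTGG), a GC box (GGGCGG or CCGCCC) or an E-box (CACGTG) in capitals. The windows are chr19:10041298-10041547 (plus strand) for Fads3, chr11:120824548-120824797 (minus strand) for Fasn, chr9:77917115-77917364 (plus strand) for Elovl5 and chr11:100528001-100528250 (minus strand) for Acly.
Fads3: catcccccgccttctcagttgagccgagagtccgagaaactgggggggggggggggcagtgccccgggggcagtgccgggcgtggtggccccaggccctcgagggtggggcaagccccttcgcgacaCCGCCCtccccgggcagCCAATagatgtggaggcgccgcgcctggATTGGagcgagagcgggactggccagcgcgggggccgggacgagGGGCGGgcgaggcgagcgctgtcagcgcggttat
Fasn: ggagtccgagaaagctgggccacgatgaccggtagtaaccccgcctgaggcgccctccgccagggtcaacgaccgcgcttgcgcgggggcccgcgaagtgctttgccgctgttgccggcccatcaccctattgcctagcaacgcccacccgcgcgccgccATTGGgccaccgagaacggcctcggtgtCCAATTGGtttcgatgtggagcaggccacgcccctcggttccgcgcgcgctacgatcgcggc
Elovl5: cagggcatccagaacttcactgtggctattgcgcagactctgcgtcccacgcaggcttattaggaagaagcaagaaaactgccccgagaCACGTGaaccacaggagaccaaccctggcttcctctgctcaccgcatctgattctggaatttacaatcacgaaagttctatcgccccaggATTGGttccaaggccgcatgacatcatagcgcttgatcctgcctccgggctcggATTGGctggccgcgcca
Acly: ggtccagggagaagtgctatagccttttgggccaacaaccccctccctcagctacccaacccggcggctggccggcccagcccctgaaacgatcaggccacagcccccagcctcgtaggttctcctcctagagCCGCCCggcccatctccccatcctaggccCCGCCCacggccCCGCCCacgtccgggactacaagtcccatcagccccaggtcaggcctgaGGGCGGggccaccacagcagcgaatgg
A CCAAT box in either orientation was in the windows of Fads3, Fasn and Elovl5, 3 of the 7, against 33.8% of all 32851 windows of the same length. In Fasn 2 of its 3 matches overlap in the run CCAATTGG. A GC box was in Acly, Fads3 and Fads2 (32.7% of all windows), with 4 matches in Acly. The E-box CACGTG was in Elovl5 (6.02% of all windows), starting 161 bases upstream. CACCCCAC, the core of the sterol response element of the LDL receptor gene, was in 0 of the 7 windows and 2.58% of all, on either strand. The full element was in 0 of the 7 and 0.0731%. At such shares 0 of 7 does not set these genes apart from others, and only exact letters were searched. Fads3, which fell, and Fasn and Elovl5, which did not pass, each hold CCAAT boxes. These are matches of letters in 250 bases and say nothing of binding, and the Acaca and Fads2 windows lie for 250 and 243 bases inside the GENCODE genes.

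The libraries held 27827199 to 48794336 counts, and Mknk1, the mouse gene of the introduced kinase, measured 15.2 and 16.7 counts per 1000000 (CPM, with library sizes scaled by the trimmed mean of M-values, TMM) in pBABE against 167, 155 and 168 CPM in caMNK. The first principal component parted the groups, and on the second, with 31.2% of the variance, caMNK replicate 2 (−18.5) and caMNK replicate 3 (11.3) lay farthest apart. Of 7 pigment cell markers 5 had 15 or fewer counts over all libraries together, among them Tyrp1 and Dct with 0, and Mitf, the most abundant, had 6.09 ± 0.236 CPM in pBABE. Markers of fat cells, which make much fatty acid, summed to between 4.65 and 4.68 CPM in pBABE and between 4.30 and 7.67 CPM in caMNK over 6 genes, with 0 counts of Lep and Lipe the most abundant. Markers of leukocytes (led by Csf1r) summed to 13.5 to 15.2 and 13.5 to 18.4 CPM, of endothelium (led by Cdh5) to 5.23 to 9.11 and 3.00 to 3.11 CPM, of keratinocytes (led by Krt10) to 3.69 to 3.77 and 4.74 to 5.05 CPM, and of fibroblasts (led by Col3a1) to 761 to 811 and 575 to 814 CPM in pBABE and caMNK. Of these lists, 1 gene passed the test, Cdh5, lower in caMNK. Lipe and Csf1r share reads with 4732471J01Rik and Hmgxb3, and their means in pBABE were 4.51 and 12.0 CPM. Most of the fat cell and leukocyte sums can therefore hold reads of those genes. In the same libraries 6 of 10 tested mitochondrial mRNAs rose, led in abundance by mt-Co1. Of 8 tested nuclear non-coding RNAs, led by Malat1, which shares reads with Gm37376, 4 rose and 1 fell. Of all tested genes 4.42% rose and 3.52% fell. The summed mitochondrial level went from 12290 to 13533 CPM in pBABE to between 18772 and 21665 CPM in caMNK, and the nuclear RNAs from 515 to 533 CPM to between 791 and 1086 CPM. Without pBABE replicate 1, 0 genes of either class passed in edgeR (6 mitochondrial mRNAs and 4 nuclear RNAs were higher and 1 nuclear RNA lower at an unadjusted p under 0.05). Without pBABE replicate 2 it was again 0 (8 and 6 higher and 1 lower), and without caMNK replicate 1, 2 of each class rose. The part of these RNA classes in the results on the fatty acid genes was not tested.

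Fads2, Scd2, Scd1, Acaca, Fads3 and Fads1 fell in caMNK, to levels 46.8%, 37.6%, 30.9%, 28.2%, 25.3% and 20.4% lower. Elovl6, Acly, Elovl5 and Fasn had lower means in caMNK but did not pass the threshold. Thus 6 of the 10 genes were called lower and 0 higher by edgeR's quasi-likelihood test (Benjamini-Hochberg adjusted p under 0.05 over 17026 genes), where 3.52% of all tested genes were called lower, 4.42% higher and 7.94% in either direction. At an unadjusted p under 0.05, 8 were lower and 0 higher, where 12.1% of all tested genes were lower and 13.8% higher, and DESeq2 called 7 lower and limma-voom 6, both with 0 higher, where they called 4.48% and 3.3% of all genes lower. Since the genes were chosen with this comparison known, nothing is read from that count. The median log2 fold change of the 10 was −0.43, against −0.0021 over all genes tested, and all 10 values were negative. In 8 of the 10 genes every caMNK library was below both pBABE libraries. Groups lay apart in that direction for 22.6% of all tested genes. The exceptions were Fasn and Elovl5.

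**Figure D1:**
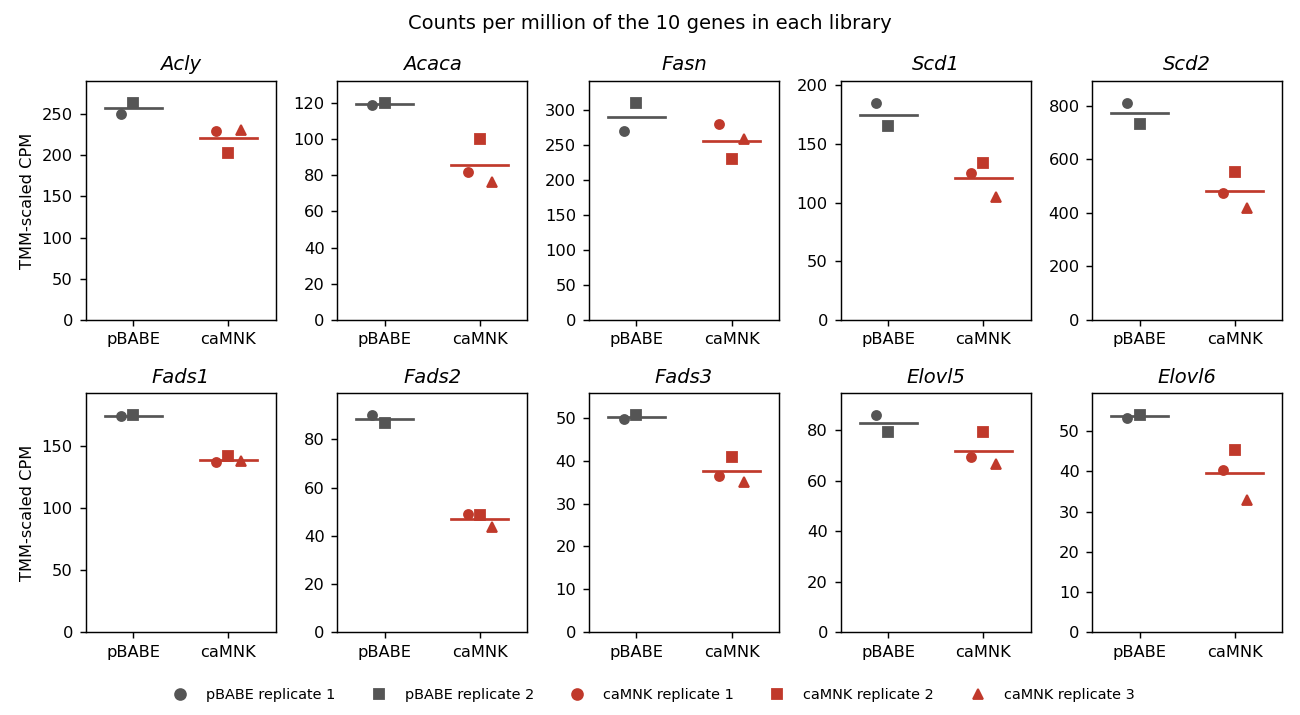
Each panel plots one gene, with TMM-scaled CPM on a vertical axis from 0 and the 2 pBABE and 3 caMNK libraries as points; lines are group means. Fads2 and Scd2 stand apart between the groups, from 88.6 to 47.1 CPM and from 772 to 481 CPM in the means, while the points of Fasn and Elovl5 overlap.

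Among the fatty acid desaturases, Fads2 had the largest fall of the 10 genes. Fads2, which makes the first desaturation of linoleic and alpha-linolenic acid, measured 90.1 and 87.0 CPM in pBABE and 49.2, 48.6 and 43.7 CPM in caMNK. All 3 caMNK libraries lay well below both pBABE libraries and close to each other. Its log2 fold change was −0.91 (SE 0.0887), a level 46.8% lower.

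Fads1, which makes the later desaturation of the same chains, measured 174 and 175 CPM in pBABE and 137, 142 and 138 CPM in caMNK. The groups did not overlap, and the 3 caMNK values spanned 0.0499 on the log2 scale, the narrowest span of the 10 genes. Its log2 fold change was −0.33 (SE 0.0790), the smallest of the 6 calls, and the call was lost with total-count scaling (log2 fold change −0.27) and with a stricter filter on low counts (−0.31). Fads3, whose product acts on sphingoid bases, measured 49.8 and 50.6 CPM in pBABE and 36.5, 40.8 and 35.1 CPM in caMNK. Its groups lay apart, with caMNK replicate 2 the nearest to pBABE, and its log2 fold change was −0.42 (SE 0.0959).

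Fads2 and Fads1 changed unequally within the libraries. The ratio of Fads2 to Fads1 counts, which does not depend on scaling, was 0.518 and 0.498 in pBABE and 0.359, 0.343 and 0.317 in caMNK. The ranges do not overlap, and the mean ratio in caMNK was 0.668 times that in pBABE. The ratio of Fads2 to its neighbour Fads3 likewise went from 1.81 and 1.72 to 1.35, 1.19 and 1.24. The ratio of Fads3 to Fads1 was 0.286 and 0.290 in pBABE and 0.266, 0.288 and 0.255 in caMNK, and these ranges overlap. The ratios here and below restate fold changes from the same counts, so they are no separate support for an unequal change. Ranges that lie apart are frequent with so few libraries: the levels of 7638 of 17026 tested genes did so in either direction. No annotated gene with counts of 10% or more of their own overlaps any of the 10 genes, and in Fads1 the nested Mir6993 had 0.111% of the counts of its host.

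Both stearoyl-CoA desaturases fell. Scd2 was the most abundant of the 10 genes by counts, with 811 and 733 CPM in pBABE and 476, 551 and 417 CPM in caMNK. No caMNK library reached the pBABE values, and caMNK replicates 2 and 3 were 0.402 apart on the log2 scale. Its log2 fold change was −0.68 (SE 0.121), a level 37.6% lower. Scd1, the form of liver and fat, measured 185 and 165 CPM in pBABE and 125, 133 and 105 CPM in caMNK, with no overlap. Its log2 fold change was −0.53 (SE 0.117). The ratio of Scd2 to Scd1 counts was 4.38 and 4.44 in pBABE and 3.81, 4.13 and 3.99 in caMNK. These ranges did not overlap either, but the mean ratio in caMNK was 0.901 times that in pBABE, a smaller shift than that between Fads2 and Fads1. The close copies Scd3 and Scd4 were not called. Their levels, and whether they were abundant enough to be tested, are not given here.

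**Figure D2:**
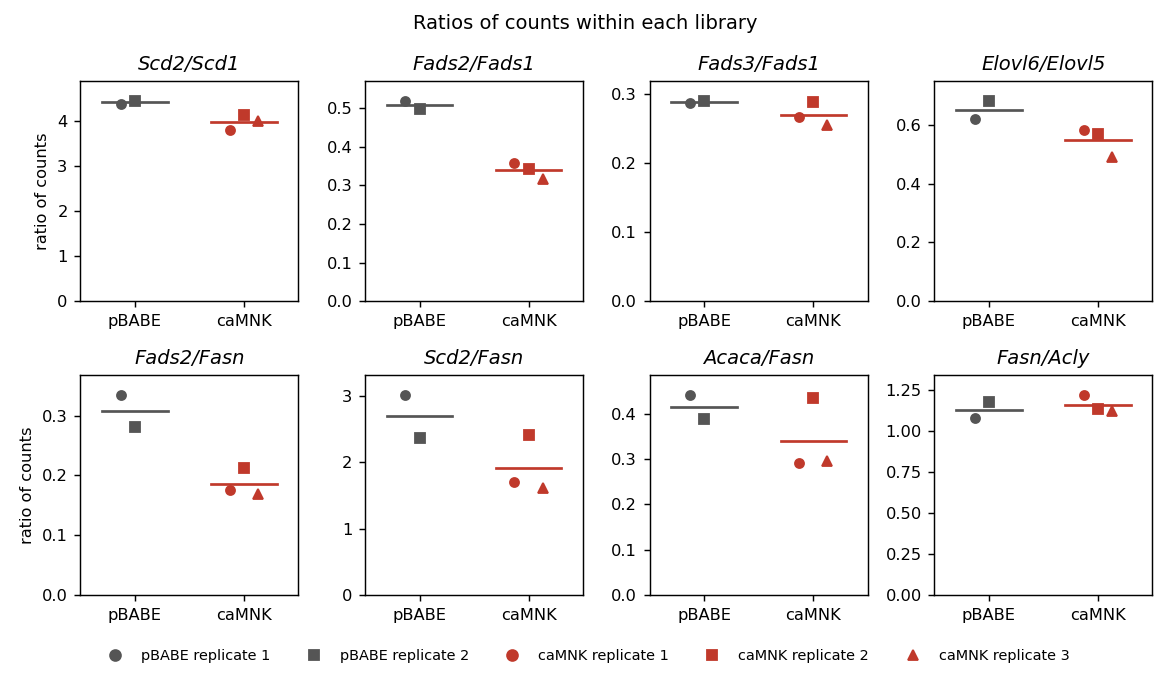
Each panel plots the ratio of the counts of a pair of genes in each library, on an axis from 0, with lines at group means; the ratio needs no library scaling. Fads2/Fads1 falls from 0.508 to 0.340 in the means without overlap, while Fads3/Fads1, Scd2/Fasn, Acaca/Fasn and Fasn/Acly overlap between the groups.

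A small window at the end of the Scd2 coding sequence is counted separately, as the miRNA gene Mir5114, and it fell more than its host. Mir5114 (chromosome 19, 44303171 to 44303231, plus strand) was chosen after its values were seen. Its 61 bases lie inside the last exon of Scd2, 27 in the coding sequence and 34 in the 3′ untranslated region of the full-length form. The annotated mature miRNA, from RefSeq (GRCm38.p6) with the seed (bases 2 to 8) in capitals, is shown to mark the window.
mmu-miR-5114: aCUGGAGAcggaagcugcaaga
Mir5114 measured 53.7 and 46.8 CPM in pBABE and 22.9, 22.6 and 22.3 CPM in caMNK, and its log2 fold change was −1.15 (SE 0.0948) beside −0.68 for Scd2. As a share of the Scd2 counts this was 6.62% (95% exact binomial interval 6.36 to 6.89) and 6.39% (6.08 to 6.71) in pBABE, and 4.81% (4.45 to 5.18), 4.10% (3.87 to 4.35) and 5.36% (5.01 to 5.72) in caMNK. Every caMNK share was below both pBABE shares. The intervals cover counting error only and treat reads, not libraries, as the unit. They do not overlap between the groups, but that of caMNK replicate 2 also lies apart from those of caMNK replicates 1 and 3. Libraries of 1 group thus differed by more than counting error, so the gap between the intervals is no test of the groups. Reads over this window can be of Scd2 mRNA, and the counts do not separate them from a miRNA precursor. What sets the share apart was not tested.

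**Figure D3:**
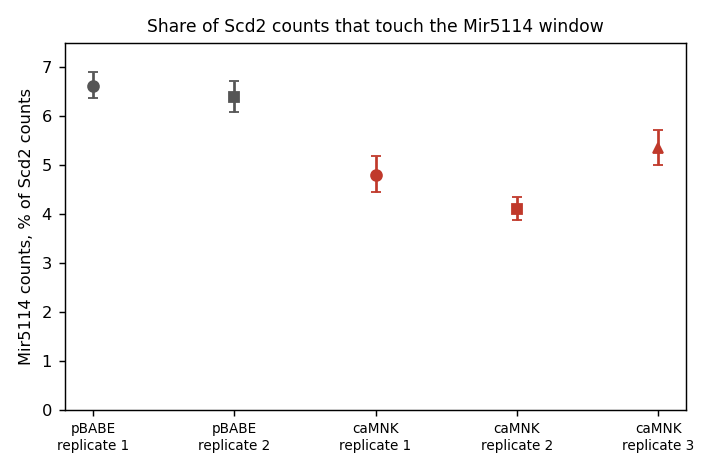
Points are Mir5114 counts as a percentage of Scd2 counts in each library, on an axis from 0, and bars are 95% exact binomial intervals of counting error. The pBABE libraries sit at 6.62% and 6.39% and the caMNK libraries at 4.10% to 5.36%.

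Of the 3 enzymes that build palmitate, Acaca fell and Acly and Fasn did not pass. Acaca, the carboxylase of the committed step, measured 119 and 120 CPM in pBABE and 81.5, 99.8 and 76.2 CPM in caMNK. The groups lay apart, with caMNK replicate 2 nearest to pBABE, and the log2 fold change was −0.48 (SE 0.119). The call was lost with a stricter filter on low counts (log2 fold change −0.46) and without genes that share reads (−0.47). Acly measured 250 and 264 CPM in pBABE and 229, 202 and 230 CPM in caMNK. The groups did not overlap, by 250 against 230 CPM, and the log2 fold change was −0.22 (SE 0.0921). Fasn, the synthase itself, measured 269 and 310 CPM in pBABE and 279, 229 and 258 CPM in caMNK. caMNK replicate 1 was above pBABE replicate 1, so the groups overlap, and the log2 fold change was −0.18 (SE 0.109).

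Fasn and Acly kept a like ratio in every library, 1.08 and 1.17 Fasn counts per Acly count in pBABE and between 1.1215 and 1.22 in caMNK. Fads2 per Fasn count went from 0.335 and 0.281 to 0.176, 0.212 and 0.169, with no overlap. Scd2 per Fasn count was 3.01 and 2.37 in pBABE and 1.70, 2.41 and 1.62 in caMNK, and caMNK replicate 2 lay within the pBABE range. The ratio of Acaca to Fasn was 0.442 and 0.388 in pBABE and 0.292, 0.436 and 0.295 in caMNK, which overlap for the same library. Thus Fads2 was lower relative to Fasn in every caMNK library, and Scd2 and Acaca in caMNK replicates 1 and 3.

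Neither elongase passed the threshold. Elovl6, which lengthens palmitate to stearate, measured 53.3 and 54.0 CPM in pBABE and 40.3, 45.3 and 32.8 CPM in caMNK. The groups lay apart, but the caMNK libraries spanned 0.467 on the log2 scale, the widest span of the 10 genes, and the log2 fold change was −0.44 (SE 0.131). DESeq2 called it lower, as did edgeR when low counts were not filtered or caMNK replicate 2 was left out. Elovl5, which lengthens polyunsaturated chains, measured 86.0 and 79.3 CPM in pBABE and 69.4, 79.4 and 66.7 CPM in caMNK. The groups overlap by caMNK replicate 2, and the log2 fold change was −0.20 (SE 0.101). The ratio of Elovl6 to Elovl5 counts was 0.620 and 0.681 in pBABE and 0.581, 0.570 and 0.491 in caMNK, with no overlap.

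The caMNK libraries differed among themselves, and most of the 10 genes were highest or lowest in the same library. In 7 of the 10 genes (Acaca, Scd1, Scd2, Fads1, Fads3, Elovl5 and Elovl6) caMNK replicate 2 was the highest of the 3, and in 7 (Acaca, Scd1, Scd2, Fads2, Fads3, Elovl5 and Elovl6) caMNK replicate 3 was the lowest. Acly and Fasn went the other way, with their lowest value in caMNK replicate 2. How many of all tested genes have these orders was not counted, so they are not read as a trait of the 10. On the first principal component caMNK replicate 2 (4.99) also lay nearer to pBABE (−16.4 and −15.9) than caMNK replicates 1 (12.4) and 3 (14.9). Without caMNK replicate 2, 8 of the 10 genes were called lower, with Elovl5 and Elovl6 added, where 15.7% of all tested genes were called lower. Without pBABE replicate 1, 0 of the 10 passed in edgeR (with 0.0688% of all genes called lower), and 7 were lower at an unadjusted p under 0.05, as were 6.09% of all genes. Without pBABE replicate 2 or caMNK replicate 1 the gene that passed was Fads2, with 0.101% and 0.474% of all genes called lower. Without caMNK replicate 3 the same 6 passed, with 4.6% of all genes called lower. Other settings called 5 of the 10 with total-count scaling (2.73% of all genes lower), 7 without a filter on low counts (4.75%), 4 with a stricter filter (3.14%), 7 with a replicate block (7.23%) and 5 without genes that share reads (2.9%). The log2 fold change of Fads2 lay between −0.94 and −0.86 over the fits without 1 library, and that of Fasn between −0.29 and −0.08.

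**Figure D4:**
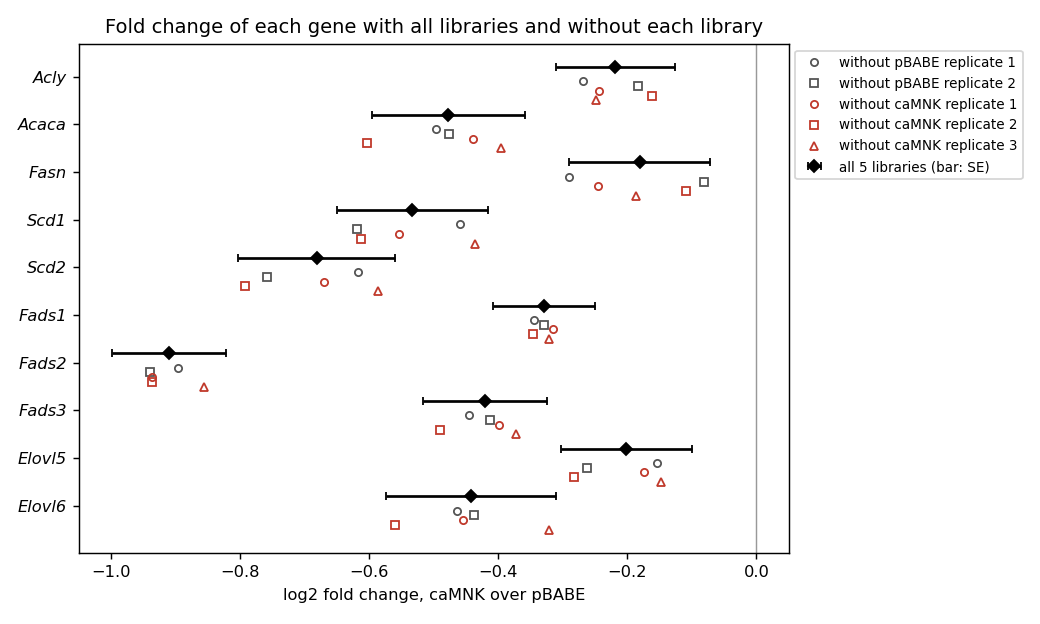
Black diamonds are log2 fold changes of caMNK over pBABE with all 5 libraries and bars their standard errors; open symbols are the values with 1 library left out. Fads2 stays between −0.94 and −0.86, and Fasn comes closest to 0, at −0.08 without pBABE replicate 2.

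Levels between genes can be compared per length, and 2 lengths were used: the summed exons, and the deposited length, which includes introns. Which reads of introns were counted was not examined. Per kilobase of summed exons, the pBABE levels were 141 CPM for Scd2, 48.6 for Acly, 36.2 for Fads1, 35.8 for Scd1, 26.9 for Fads2, 26.4 for Fasn, 23.5 for Elovl5, 13.2 for Fads3, 8.34 for Elovl6 and 7.00 for Acaca. Fads1 and Scd1 overlapped in the pBABE libraries, and so did Fads2 and Fasn. In caMNK on the same scale Scd2 stayed first, at 88.1 CPM per kilobase, and Fads2, at 14.3, moved below Fasn (23.3) and Elovl5 (20.4), with no overlap. Scd1 (24.7) overlapped Fasn, Fasn overlapped Elovl5, and Elovl6 overlapped Acaca. Per kilobase of the deposited length, introns included, Scd2 was again first, at 58.5 CPM in pBABE, followed by Fasn (15.5), Scd1 (13.2), Fads1 (12.5), Acly (4.97), Fads3 (2.77), Fads2 (2.37), Elovl5 (1.23), Elovl6 (0.505) and Acaca (0.440). Scd2 was first and Elovl6 and Acaca last on both scales in both groups, while other places depended on the length used: Acly ranked 2 by exons and 5 by deposited length in both groups, and Fads3 ranked 8 and 6.

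Few other genes of the pathway passed. Of 80 tested genes that supply precursors, synthesize, desaturate, elongate, activate or esterify fatty acids or regulate these steps, 4 fell and 0 rose. That is 5.0% lower, where 3.52% of all tested genes were called lower, 4.42% higher and 7.94% in either direction. Their median log2 fold change was −0.10. At an unadjusted p under 0.05, 16 were lower and 8 higher, where 12.1% of all tested genes were lower and 13.8% higher. DESeq2 called 6 lower and 0 higher, and limma-voom 4 lower and 0 higher, where they called 4.48% and 3.3% of all genes lower. The called share is near that of all genes, while the unadjusted counts lean lower, which those of all genes do not. Without pBABE replicate 1, pBABE replicate 2 or caMNK replicate 1, 0 of the 80 passed in edgeR (7, 8 and 11 at an unadjusted p under 0.05), and without caMNK replicate 2, 16 fell and 7 rose, where 29.6% of all genes passed. In that fit 3 precursor and NADPH supply genes were called lower and 2 higher, and 3 activation and glycerolipid genes lower and 1 higher.

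Of 12 tested genes that supply citrate, acetyl-CoA and NADPH, 0 passed in edgeR. At an unadjusted p under 0.05, 4 were lower and 1 higher, where 12.1% of all tested genes were lower and 13.8% higher. DESeq2 called 2 lower and limma-voom 0, where they called 4.48% and 3.3% of all genes lower. The lowest p-values were those of the malic enzyme gene Me1 (81.5 ± 5.41 CPM in pBABE and 62.5 ± 7.57 in caMNK, log2 fold change −0.38, edgeR adjusted p = 0.0746), Aacs, which activates acetoacetate (−0.39, 0.0776), Pdha1, which shares reads with Map3k15 (−0.25, 0.0961), and Me2 (0.23, 0.131). Of 8 other tested synthesis genes, 1 fell, where 3.52% of all tested genes were called lower. Mid1ip1, whose product promotes the assembly of active acetyl-CoA carboxylase and which shares reads with Gm14493, measured 85.6 ± 1.55 CPM in pBABE and 67.0 ± 3.82 CPM in caMNK, a log2 fold change of −0.35 (SE 0.0865, edgeR adjusted p = 0.0430). It did not pass under total-count scaling (adjusted p = 0.0636), under the stricter filter (0.0550) or without any 1 of pBABE replicate 1 (0.341), pBABE replicate 2 (0.268) and caMNK replicate 1 (0.204). The mitochondrial fatty acid synthesis genes Cbr4 (−0.31, 0.201), Oxsm (−0.24, 0.357) and Mcat (−0.17, 0.399) did not pass, and Oxsm and Mcat share reads with Ngly1 and Tspo.

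Of 15 tested genes of other desaturases, elongases, elongation cycle enzymes and desaturase electron donors, 0 passed by edgeR, DESeq2 or limma-voom. In each, 1 was higher and 1 lower at an unadjusted p under 0.05, where edgeR had 13.8% of all tested genes higher and 12.1% lower. Hacd1, an elongation cycle dehydratase, had a log2 fold change of 0.31 (edgeR adjusted p = 0.115), the reductase gene Cyb5r1 −0.26 (0.131), the electron carrier gene Cyb5b −0.17 (0.261) and Hsd17b12, a reductase of the elongation cycle, −0.15 (0.302). Of 23 tested genes that activate fatty acids or build glycerolipids, 1 fell and 0 rose, where 3.52% of all tested genes fell and 4.42% rose. Gpam, the mitochondrial acyltransferase that starts triglyceride synthesis, went from 12.4 and 12.9 CPM to 7.01, 8.04 and 7.08 CPM, with no overlap (log2 fold change −0.78, SE 0.119, adjusted p = 0.00999). Leaving out pBABE replicate 1 (adjusted p = 0.135), pBABE replicate 2 or caMNK replicate 1 (0.0580) ended the call. Lpcat3, which puts polyunsaturated chains into phospholipids and shares reads with Emg1, was just outside the threshold (−0.36, 0.0504), and Dgat1 (0.43, 0.0925) and Gpat4 (−0.20, 0.156) did not pass.

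Both SREBP genes fell. Srebf1, whose product is best known for fatty acid genes, measured 130 and 118 CPM in pBABE and 99.2, 89.3 and 93.7 CPM in caMNK, with no overlap (log2 fold change −0.40, SE 0.0897, edgeR adjusted p = 0.0335). It shares reads with Rai1, and under total-count scaling it did not pass (0.0562). Srebf2, whose product is best known for cholesterol genes, measured 169 and 171 CPM in pBABE and 122, 110 and 124 CPM in caMNK (log2 fold change −0.52, SE 0.0879, adjusted p = 0.0131). Both calls were lost without pBABE replicate 1 (adjusted p of 0.340 and 0.165), pBABE replicate 2 (0.167 and 0.139) or caMNK replicate 1 (0.107 and 0.0713). These 2 were the calls among 23 tested regulators, with 0 rises, where 3.52% of all tested genes were called lower and 4.42% higher. At an unadjusted p under 0.05, 7 of the 23 were lower and 3 higher, where 12.1% of all tested genes were lower and 13.8% higher. Without caMNK replicate 2, 9 regulators were called lower and 3 higher, where 15.7% of all genes were called lower and 29.6% in either direction. Insig1, which retains SREBP in the endoplasmic reticulum, had a value of −0.29 (0.144), the AMP-activated kinase subunit genes Prkaa2 and Prkab2, the latter sharing reads with Gm17651, had log2 fold changes of −0.59 (0.0760) and 0.43 (0.0875), and Mlxipl, the carbohydrate-responsive factor, had 0.0670 CPM in pBABE and was too low to test.

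Of 23 tested genes of fatty acid oxidation, the opposite direction of flux, 0 passed in edgeR, 1 was called higher by DESeq2 and 0 by limma-voom. At an unadjusted p under 0.05 in edgeR, 2 were higher and 1 lower, where 13.8% of all tested genes were higher and 12.1% lower. Cpt1a, the carnitine transferase that admits fatty acids to the mitochondrion, measured 77.6 and 79.6 CPM in pBABE and 118, 86.3 and 118 CPM in caMNK (log2 fold change 0.45, edgeR adjusted p = 0.0843). It passed by DESeq2 (0.0245), and in edgeR with the replicate block (0.0149) and without a filter on low counts (0.00176). It also passed in edgeR without caMNK replicate 2 (log2 fold change 0.59, adjusted p = 1.46e-05). Without that library 6 of the 23 were called higher and 0 lower, where 2325 of 16675 tested genes were called higher and 2617 lower. Among the 6 were Cpt1b (adjusted p = 0.00682) and the carnitine carrier gene Slc25a20 (0.0108), which with all libraries did not pass (0.88, 0.0734, and 0.24, 0.240), and Cpt1b also passed with the replicate block (0.00872) and without a filter on low counts (0.00778). Hadha (−0.19, 0.178) did not pass.

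The cholesterol synthesis genes, which SREBP factors also control, are the closest group for comparison. This list too was chosen with earlier results of these data known. Of 23 tested, 12 fell and 0 rose, beside 6 of 10 lower for the fatty acid genes and 3.52% of all tested genes. The median log2 fold change was −0.41, beside −0.43 for the fatty acid genes. Those of lowest p were Sqle (84.8 ± 0.972 to 56.8 ± 4.01 CPM, adjusted p = 0.0103), Nsdhl (23.2 ± 0.535 to 15.2 ± 0.497 CPM, 0.0110) and Lss, which shares reads with 4930483K19Rik (30.3 ± 0.463 to 19.9 ± 1.22 CPM, 0.0111). In edgeR fits that left out pBABE replicate 1, then pBABE replicate 2, then caMNK replicate 1, 0, 0 and 2 passed, with 11, 15 and 17 lower at an unadjusted p under 0.05. The difference between the groups of genes was not tested.

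**Figure D5:**
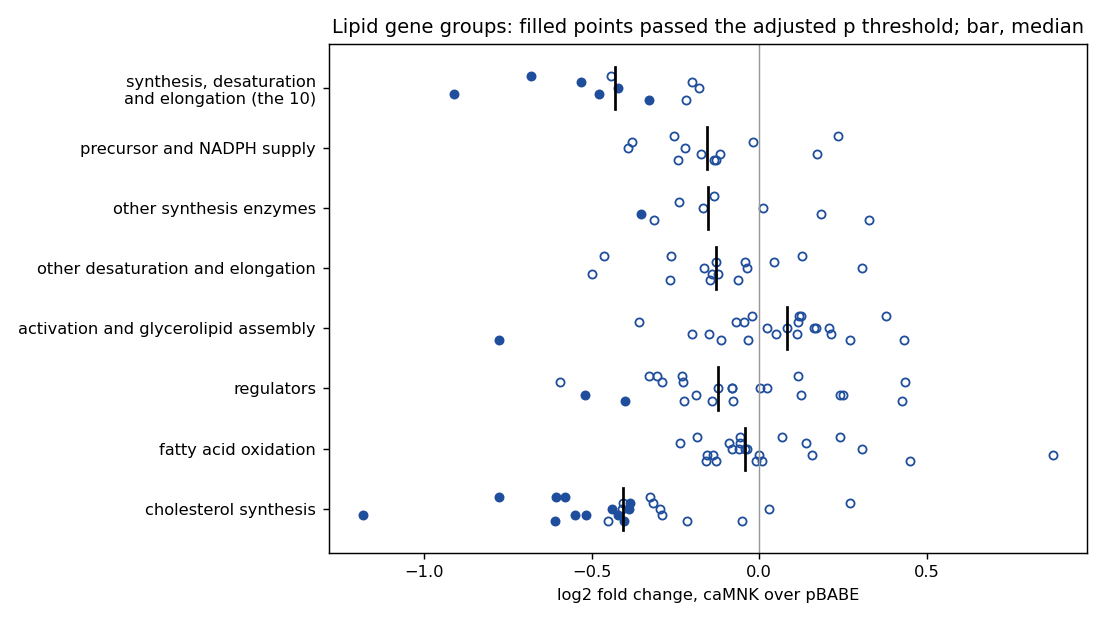
Each point is the log2 fold change of caMNK over pBABE of 1 tested gene, in rows by group; filled points passed the adjusted p threshold of 0.05 and black bars are medians. The medians of the 10 fatty acid genes (−0.43) and of cholesterol synthesis (−0.41) lie lower than those of the other groups, which run from −0.15 to 0.08.

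The 10 genes did not share 1 profile over the libraries. By the root mean square difference of log2 CPM centred over the 5 libraries, Acly and Fasn were the closest pair (0.0597), Acaca and Fads3 differed by 0.0647, and Scd2 was closest to Scd1 (0.0829). Fads2 and Fasn were the farthest apart (0.382). Fads3 lay nearest to the median profile of the 10 (0.0337) and Fads2 farthest from it (0.238). Among 9311 other genes of a mean log2 CPM of 3 or more, the 5 nearest to that median profile were Kif13a (0.0157), Sel1l (0.0209), Arhgap11a (0.0219), Mtr (0.0226) and Edem3 (0.0230). Sel1l and Edem3 encode proteins of endoplasmic reticulum-associated degradation, Kif13a a kinesin, and Mtr methionine synthase. Sel1l, for example, measured 108 and 105 CPM in pBABE and 79.8, 83.2 and 70.8 CPM in caMNK. Over 5 libraries the likeness is a description.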

How the data were processed

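Total RNA (RNeasy Plus Mini Kit) was made into TruSeq Stranded Total RNA libraries, per the labels' protocols. The authors deposited raw read counts per gene symbol 1 table per library, with a gene length in bases that was used only for levels per length. The submitters' processing notes name STAR 2.5.3, featureCounts 1.5.3, DESeq2 and mm10. Annotation release, feature type and strand setting are not stated in the labels. Of 44052 symbols with 1 entry in GENCODE M21, 37267 deposited lengths equal the genomic span, introns included, so intronic reads are taken to be counted, and reads of overlapping genes may not be told apart. Genes said to share reads overlap a gene with 10% or more of their counts.

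Groups came from sample titles. The test was edgeR 4.0.16 (R 4.3.3): filterByExpr, TMM, robust quasi-likelihood F test on 5 libraries, group as the only term, Benjamini-Hochberg adjustment over 17026 genes, threshold 0.05. CPM are TMM-scaled; SE was taken as log2 fold change over root F; values after ± are SD (n = 2 pBABE and 3 caMNK). The script was tested on simulated data. DESeq2 1.42.0, limma-voom (limma 3.58.1), other scalings and filters, a replicate block, and fits without each library or without genes that share reads were alternatives. The 10 genes and the other lists were chosen with earlier results of these data known. Beside the 10 genes, the text names those past the threshold or of lowest p up to 4 in each fatty acid list, set regulators, the 3 lowest p of cholesterol synthesis, the most abundant marker of each list and the 5 nearest profiles; the Scd2-nested miRNA gene and the pair of minor Scd genes fall outside this rule.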

Additional observations from a re-analysis of the deposited data

How the results depend on the processing

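All 10 fatty acid genes kept a negative log2 fold change in all 12 alternatives, with a median between −0.52 (without caMNK replicate 2) and −0.35 (without caMNK replicate 3). For genes whose groups do not overlap this direction is all but fixed, so it is no sign of stability. The number of the 10 called was 4 to 7 with other tools, scalings, filters or the block, and 0 to 8 without 1 library. Over all genes, 1352 were called, 2921 without a filter on low counts, 2708 with the replicate block, 725 without genes that share reads, and 23 to 4942 without 1 library. Of the 80 other pathway genes, 4 were called, 2 with total-count scaling, 10 without a filter, 11 with the replicate block, 2 without genes that share reads and 0 to 23 without 1 library. Of the cholesterol genes, 12 were called, 7 without genes that share reads (16 tested) and 0 to 18 without 1 library. Mknk1 passed in every alternative. Csf1r, far from the threshold throughout, had a log2 fold change of 0.04 (−0.05 to 0.14 without 1 library), and −0.05 with the block (−0.049), without pBABE replicate 1 (−0.046) and without caMNK replicate 3 (−0.047). The causes were not tested. Total-count scaling shifted the median of all genes to 0.0515 and gave 999 rises and 465 falls, against 753 and 599 with TMM.

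Replicate numbers 1 and 2 occur in both groups, but the labels do not say that they pair libraries. Deviations of same-numbered libraries from their group means had correlations of −0.208 and 0.00279 over 10495 genes. With 2 pBABE libraries, their deviations mirror each other. The correlations are therefore not separate checks and cannot decide whether libraries are paired. With the replicate block, which leaves 1 residual degree of freedom, 7 of the 10 genes were called, Elovl6 being added. The 10 genes had at least 1047 counts in every library. What limits the calls was not tested.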
